A study of Mus musculus with 10 samples.

Results

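The genes described here are the light chains of muscle myosin and the kinase that phosphorylates them, taken by symbol as 7 of the 23417 genes listed in each Huwe1 table: the essential chains Myl1, Myl3, Myl4 and Myl6b, the regulatory chains Mylpf and Myl2, and the kinase Mylk2. Their mRNA levels were measured by directional mRNA sequencing of C2C12 cells, a mouse myoblast line that fuses into contractile myotubes when serum is withdrawn. The study asked how gene expression responds when Huwe1, a ubiquitin ligase acting on the TATA-binding protein TBP, is depleted, and when USP10, a deubiquitinase acting against it, is overexpressed. The 10 libraries fall into 7 groups. On day 0, in myoblasts, and on day 6 of differentiation, 1 control library labelled wild type was set against 2 knockdown libraries, each carrying its own shRNA, and the same pair of hairpins was used on both days. In day 8 myotubes, infected with virus on day 4, a control library with a non-targeting RNA was set against 2 knockdown libraries with another pair of hairpins. On day 6, 1 library of cells carrying USP10 cDNA under the EF1a promoter was set against a control column. The knockdown cells were infected with lentivirus and selected with puromycin, and for the day 0 and day 6 controls the labels give no virus.

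Each conventional myosin molecule pairs 2 heavy chains with essential and regulatory light chains, which wrap around and stiffen the lever arm of the head. In skeletal muscle, calcium-bound calmodulin activates Mylk2, which phosphorylates the regulatory chain and thereby increases force at low calcium, and a phosphatase containing Ppp1cb removes the phosphate. Cells outside striated muscle use another set, in which Myl6 is the essential chain and Myl9, Myl12a and Myl12b are regulatory chains.

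In coordinates of GRCm38, Myl1 lies on chromosome 1 from 66924296 to 66945056, Myl3 on chromosome 9 from 110763681 to 110769794, Myl4 on chromosome 11 from 104550663 to 104587219, and Myl6b on chromosome 10 from 128494157 to 128498685. Mylpf lies on chromosome 7 from 127211608 to 127214287, Myl2 on chromosome 5 from 122100980 to 122106854, and Mylk2 on chromosome 2 from 152911352 to 152923065. Each of the 6 light chain genes except Myl4 has 7 exons in its longest annotated RefSeq-matched transcript, Myl4 has 8 and Mylk2 has 12. Myl6b ends 331 bases upstream of Myl6 on the same strand, and the Myl4 locus overlaps 4 other annotated genes.

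Since most members moved together, the 250 bases before the start site of the 4 light chain genes with the same start in the files and in RefSeq (GRCm38.p6), and with at least 1 FPKM in every differentiated sample, are shown 5′ to 3′ along the gene's strand, with capitals marking the E-box CANNTG, the motif bound by MyoD-family factors.
Myl1 (chr1:66945057-66945306, minus strand): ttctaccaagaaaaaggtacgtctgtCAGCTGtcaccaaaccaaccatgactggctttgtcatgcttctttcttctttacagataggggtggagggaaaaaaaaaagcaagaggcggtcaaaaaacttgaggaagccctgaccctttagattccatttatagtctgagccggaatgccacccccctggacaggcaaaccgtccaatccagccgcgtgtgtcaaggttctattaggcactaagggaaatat
Myl4 (chr11:104550413-104550662, plus strand): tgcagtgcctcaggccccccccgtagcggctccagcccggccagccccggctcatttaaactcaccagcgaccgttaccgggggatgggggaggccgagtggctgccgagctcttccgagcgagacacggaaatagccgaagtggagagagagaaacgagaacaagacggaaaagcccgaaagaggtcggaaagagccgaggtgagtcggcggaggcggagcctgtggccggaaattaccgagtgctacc
Myl6b (chr10:128498686-128498935, minus strand): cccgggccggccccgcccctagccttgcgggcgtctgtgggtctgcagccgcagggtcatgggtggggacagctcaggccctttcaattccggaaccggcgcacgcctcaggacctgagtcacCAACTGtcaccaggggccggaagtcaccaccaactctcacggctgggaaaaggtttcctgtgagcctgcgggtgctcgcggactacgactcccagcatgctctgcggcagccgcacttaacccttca
Mylpf (chr7:127211358-127211607, plus strand): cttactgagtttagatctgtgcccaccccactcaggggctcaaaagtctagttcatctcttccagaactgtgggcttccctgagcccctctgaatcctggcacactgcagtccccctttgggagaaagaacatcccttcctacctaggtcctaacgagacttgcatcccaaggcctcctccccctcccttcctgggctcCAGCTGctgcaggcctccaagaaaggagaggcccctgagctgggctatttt
The E-box was searched on both strands, which read the same for this motif, and was found in the windows of Myl1, Myl6b and Mylpf and not in that of Myl4. Its first base lay 224 bases before the start in Myl1, 127 in Myl6b and 51 in Mylpf. Only the start shown was searched for these genes, so a motif before any other start would be missed. Myl4, for example, has 3 annotated transcripts matched to RefSeq. Over the 5 members whose RefSeq start lay within 10 bases of that in the files, 4 windows held an E-box, against 66.2% of 32851 windows of the same length, so that the motif is common in promoters. A MEF2 site was found in 0 of the 5 windows and 2.92% of all windows, and an SRF site in 1, that of Myl3, and 1.47% of all windows.

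The deposited values are FPKM, that is fragments relative to transcript length and to the fragments of the library, with 1 value per condition. The 2 knockdown libraries share 1 column, so no difference has a replicate check and none was tested. Depth, read from the steps between low values, was about 21900000, 30200000 and 18100000 fragments in the day 0, 6 and 8 controls, 7780000 in the USP10 table's control and 27600000 with USP10. The targeted Huwe1 was lower in each knockdown, with log2 ratios of -1.33, -0.68 and -0.75 on days 0, 6 and 8. Usp10 was higher in its table, with a log2 ratio of 1.89 and 38.3 FPKM in the USP10 column. Usp10 was also higher in the day 6 Huwe1 knockdown, at 13.2 and 35.4 FPKM (log2 ratio 1.42). On day 0 Usp10 stood at 68.5 FPKM in control and 64.2 FPKM in knockdown cells (log2 ratio -0.09), both above the USP10 column. On day 8 it stood at 14.5 and 13.1 FPKM (log2 ratio -0.14). Desmin (Des) and the myogenic factor Myod1 were detected in all 8 columns, at 173 to 1769 FPKM and 9.30 to 155 FPKM, while the adipocyte list summed to at most 4.68 FPKM. The 4 tables were normalized separately, and in bulk RNA fewer cells of a type and less RNA per cell cannot be told apart.

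On day 0 the muscle light chains were barely present. Mylpf, the fast skeletal regulatory chain, was at 4.48 FPKM in control and 3.58 FPKM in knockdown cells, Myl1, the fast skeletal essential chain, at 2.66 and 2.23 FPKM, and Myl6b, an essential chain of slow skeletal and nonmuscle myosin, at 3.002 and 2.18 FPKM. Myl2, the slow skeletal and ventricular regulatory chain, and Myl3, the slow skeletal and ventricular essential chain, were listed at 0 in both columns. The fragments behind the control values were few, about 54.8 for Myl1, 69.5 for Mylpf and 18.2 for Myl4. Of the 5 members with at least 1 FPKM in 1 column, 1 was lower and 1 higher by 2-fold or more, against 1.69% and 1.90% of 10874 genes. These were Mylk2, at 1.57 FPKM without and 0.657 FPKM with the knockdown (log2 ratio -1.24), and Myl4, the embryonic and atrial essential chain, at 0.924 and 2.33 FPKM (log2 ratio 1.32). Both counts became 0 with a pseudocount of 1 FPKM, or when 1 FPKM was required in both columns.

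By day 6 of differentiation the same genes were among the most abundant mRNAs of the control. Myl1 ranked 3 and Mylpf ranked 4 of 23417 genes, and the 6 light chains together made up 2.74% of the summed FPKM of the column. Set across the separately normalized tables, the day 6 control exceeded the day 0 control 2998-fold for Myl1, 1310-fold for Mylpf, 1060-fold for Myl4, 94.2-fold for Myl6b and 18.1-fold for Mylk2. The knockdown cells also gained these mRNAs between these days, 508-fold for Myl1, 599-fold for Mylpf, 132-fold for Myl4, 19.0-fold for Myl6b and 8.14-fold for Mylk2. The day 6 levels of these light chains in knockdown cells thus stayed far above those of both day 0 columns. Mylk2 was closer, at 5.35 FPKM in the day 6 knockdown and 1.57 FPKM in the day 0 control.

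In the day 6 knockdown, 6 of the 6 members with at least 1 FPKM were at least 2-fold lower than the control, against 13.4% of 11695 genes, and 0 were higher, against 17.6%. Against the control of the USP10 table, after centring, 4 of 6 were at least 2-fold lower, without Mylpf (-0.47) and Myl6b (-0.99), and the median was -1.10. The share of all genes is not given for this comparison. Between the 2 controls themselves, 19.9% of 11459 genes were at least 2-fold apart after centring. With the control of the same table the median log2 ratio of the members was -2.14, beside -0.01 over all genes kept. Among the essential chains, Myl1 was listed at 7977 FPKM for control and 1132 FPKM for knockdown cells, a 7.05-fold lower level, and went from rank 3 to rank 41. This gene yields a long and a short isoform from separate promoters, which values per gene do not separate. Myl4 stood at 979 FPKM and 307 FPKM, a 3.19-fold lower level. Myl6b stood at 283 FPKM and 41.4 FPKM, a 6.84-fold lower level. Myl1 and Myl6b had the lowest ratios in this table, but against the control of the USP10 table Myl6b, at -0.99, lay above Myl4, at -1.14. Myl3 was listed at 0.351 FPKM and 0.0336 FPKM, with about 9.92 fragments behind the control value, and was not kept.

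The regulatory chains were lower by smaller ratios than Myl1 in the same columns. Mylpf was listed at 5865 FPKM for control and 2146 FPKM for knockdown cells, a 2.73-fold lower level, and went from rank 4 to rank 13. Myl2 stood at 346 FPKM and 94.9 FPKM, a 3.64-fold lower level. The kinase Mylk2, at 28.4 FPKM and 5.35 FPKM, was 5.31-fold lower, and 4.66% of the genes kept had a lower ratio than it.

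In day 8 myotubes, where Huwe1 was depleted after differentiation had begun, again 6 of 6 members were at least 2-fold lower, against 10.0% of 11755 genes, and 0 were higher, against 7.89%, with a median log2 ratio of -2.07 beside 0.00 over all genes. Mylpf, the most abundant member in this control, stood at 4641 FPKM and 861 FPKM, a 5.39-fold lower level. Myl1 stood at 3048 FPKM and 745 FPKM, a 4.09-fold lower level. The order within the family was therefore not that of day 6, since Mylpf had the lowest ratio here and the highest there. Myl4 stood at 718 FPKM and 167 FPKM (log2 ratio -2.11), and Myl6b at 194 FPKM and 39.4 FPKM (log2 ratio -2.30). Myl2, at 37.8 FPKM and 14.4 FPKM, and Mylk2, at 55.7 FPKM and 21.5 FPKM, had log2 ratios nearer to 0, of -1.40 and -1.38. Myl3 was listed at 0 FPKM without and 0.0360 FPKM with the knockdown. The difference in order between the days was not tested, and the days differ in hairpins, in the kind of control and in the time of infection.

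With USP10 overexpressed on day 6, 5 of 6 members were at least 2-fold lower, against 10.0% of 11482 genes, and 0 were higher, against 9.70%, with a median log2 ratio of -1.52 beside 0.05 over all genes. Against the control of the day 6 knockdown table, after centring, 6 of 6 were at least 2-fold lower and the median was -2.46. The share of all genes is not given for this comparison either. Myl1 was listed at 3769 FPKM without and 519 FPKM with USP10, a 7.26-fold lower level, and went from rank 3 to rank 156. Myl4 stood at 650 FPKM and 269 FPKM, a 2.42-fold lower level. Myl6b stood at 78.8 FPKM and 14.7 FPKM, a 5.37-fold lower level. Of the essential chains Myl1 had the lowest ratio in this table, but against the control of the knockdown table Myl6b, at -4.26, lay below Myl1, at -3.93. The exception to the 2-fold count was Mylpf, at 2857 FPKM and 1953 FPKM, a 1.46-fold lower level that 17.7% of genes exceeded in the downward direction. Myl2 stood at 244 FPKM and 81.2 FPKM, a 3.01-fold lower level, and Mylk2 at 10.7 FPKM and 3.91 FPKM, a 2.75-fold lower level. Myl3 was listed at 0.505 FPKM and 0.237 FPKM, with about 3.69 and 6.13 fragments behind these values.

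**Figure D1:**
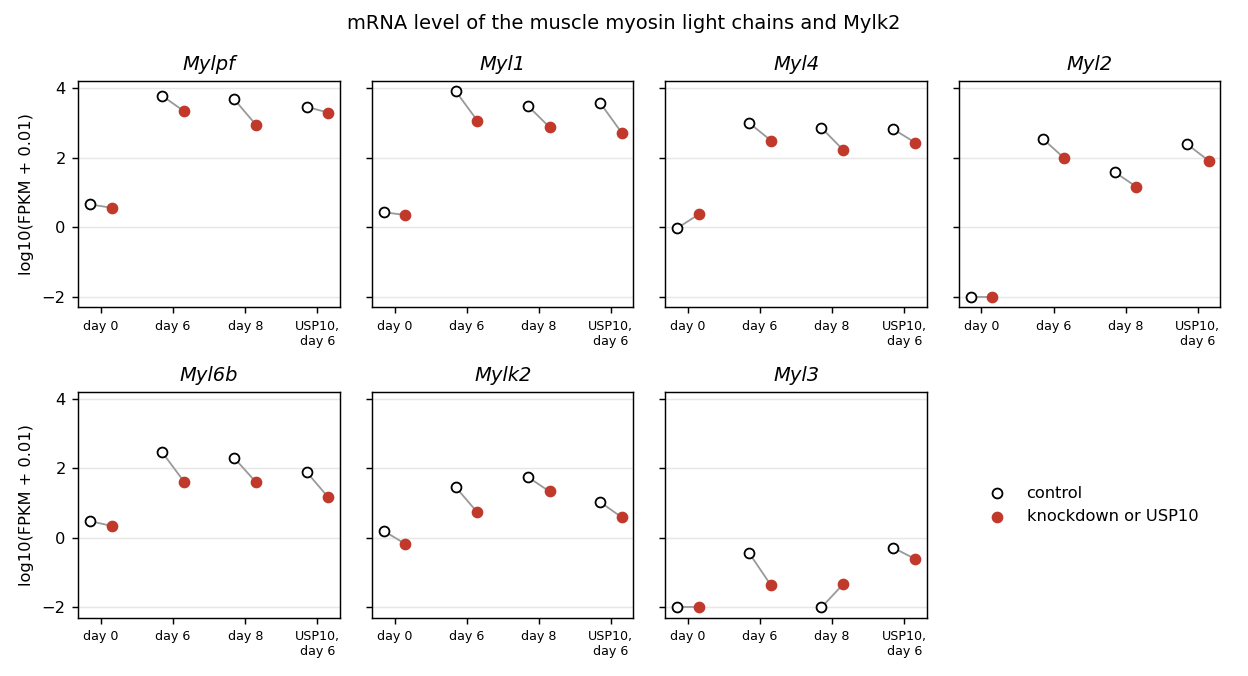
Level of each of the 7 genes in the 8 columns, as log10(FPKM + 0.01) on the vertical axis, so that a value of 0 FPKM is drawn at -2. Open circles are controls and filled circles the knockdown or USP10 column of the same table, joined by a line. Myl3 stays under 1 FPKM in every column, and on days 6 and 8 each filled circle of the other 6 genes lies below its open circle.

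**Figure D2:**
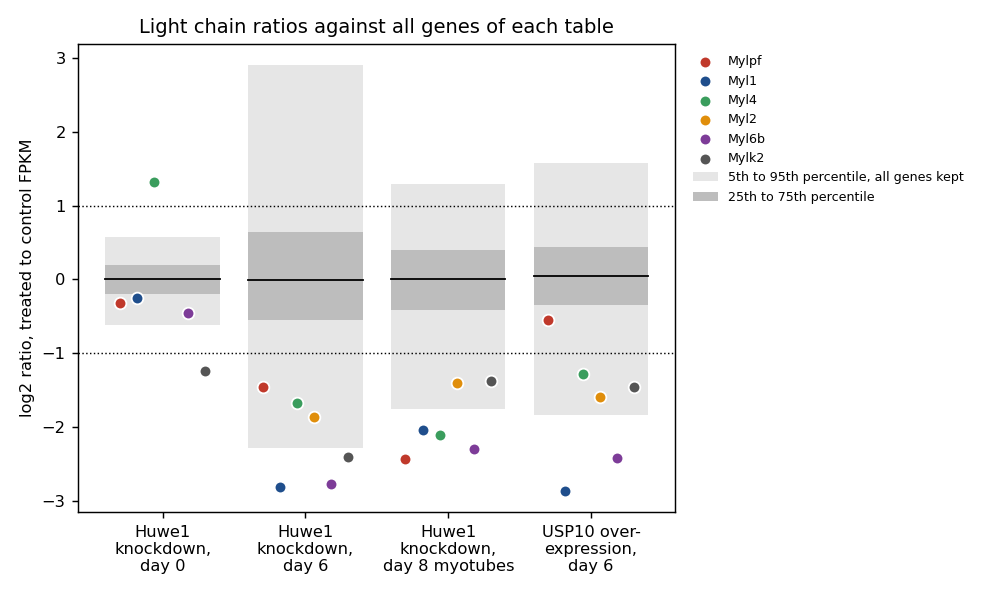
Log2 ratio of treated to control FPKM (vertical axis) of the members kept in each of the 4 tables, with 0.01 FPKM added to both values. Light and dark grey bars span the 5th to 95th and the 25th to 75th percentile of all genes kept, black lines mark their median and dotted lines 2-fold. On day 6 the 6 members lie between -2.82 and -1.45, and with USP10 Mylpf alone lies above -1, at -0.55.

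The tables hold 2 control columns of day 6, that of the knockdown table and that of the USP10 table. The heads of both columns name the same file, yet the values differ by more than a scaling, and which library the second was made from is not mapped here, so that the 2 comparisons may share a control. Whether the distance between them is one between cultures is therefore not known, and it is given as a distance between columns, not as a replicate error. Between these controls Myl1 differed 2.12-fold, Mylpf 2.05-fold, Myl4 1.51-fold, Myl2 1.41-fold, Myl6b 3.59-fold and Mylk2 2.64-fold, each higher in the control of the knockdown table. For Myl1, Myl2 and Myl4 the knockdown column lay farther below either control than the controls lay from each other. Mylpf was closer, with a log2 ratio of -0.47 for the day 6 knockdown against the control of the USP10 table after centring on the median gene, and of -1.58 for USP10 against the control of the knockdown table. For Myl6b and Mylk2 the first of these values was -0.99 and -1.06. After centring, 6 of the 6 members kept were below both controls in the knockdown and with USP10, as were 39.9% and 36.5% of 11459 genes.

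Ordered by level over the 8 columns, Myl1 ran from 7977 FPKM in the day 6 control through the control of the USP10 table (3769 FPKM) and the day 8 control (3048 FPKM) to the day 6 knockdown (1132 FPKM), the day 8 knockdown (745 FPKM) and USP10 (519 FPKM). The gap between the lowest differentiated control and the highest treated column, 2.69-fold, was wider than that between the 2 day 6 controls. For Myl4 the same gap, 2.12-fold, was also wider. For Mylpf it was 1.33-fold, between 2857 FPKM in the control of the USP10 table and 2146 FPKM in the day 6 knockdown, and for Myl6b 1.90-fold, and both were narrower than the distance between the day 6 controls. For Myl2 the day 8 control, at 37.8 FPKM, lay below the day 6 knockdown (94.9 FPKM) and USP10 (81.2 FPKM), so that the columns sorted by day before treatment. Mylk2 was highest in the day 8 control, 1.96-fold above the day 6 control, and none of its 7 steps from column to column was wider than the 2.64-fold between the day 6 controls.

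Ratios between light chains within a column do not depend on how the tables were scaled, and they showed a change of makeup on day 6. In the control, Myl1 held 51.6% and Mylpf 38.0% of the summed FPKM of the 6 light chains. In the day 6 knockdown the order was turned, with 30.4% for Myl1 and 57.7% for Mylpf. In the USP10 table Myl1 held 49.6% in the control and 18.3% with USP10, and Mylpf 37.6% and 68.8%. The 2 day 6 controls were thus close for Myl1, and both treated columns lay below them by 21.2 and 31.3 percentage points. In day 8 myotubes the shares were 35.3% and 40.8% for Myl1 and 53.7% and 47.1% for Mylpf, a difference the other way. This direction depends on the genes summed: as a share of all 12 light chain genes Myl1 stood at 29.0% and 22.9% on day 8, and Mylpf at 35.5% and 35.7% on day 6, while Myl1 was still lower on day 6 (48.3% and 18.8%) and with USP10 (43.0% and 11.2%). The ratio of essential to regulatory chain mRNA accordingly stood at 1.49 in the control and 0.661 in the knockdown on day 6, at 1.45 and 0.395 in the USP10 table, and at 0.846 and 1.09 on day 8. On day 0, with 11.1 and 10.3 FPKM in all, Myl1 held 24.0% and 21.6%.

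**Figure D3:**
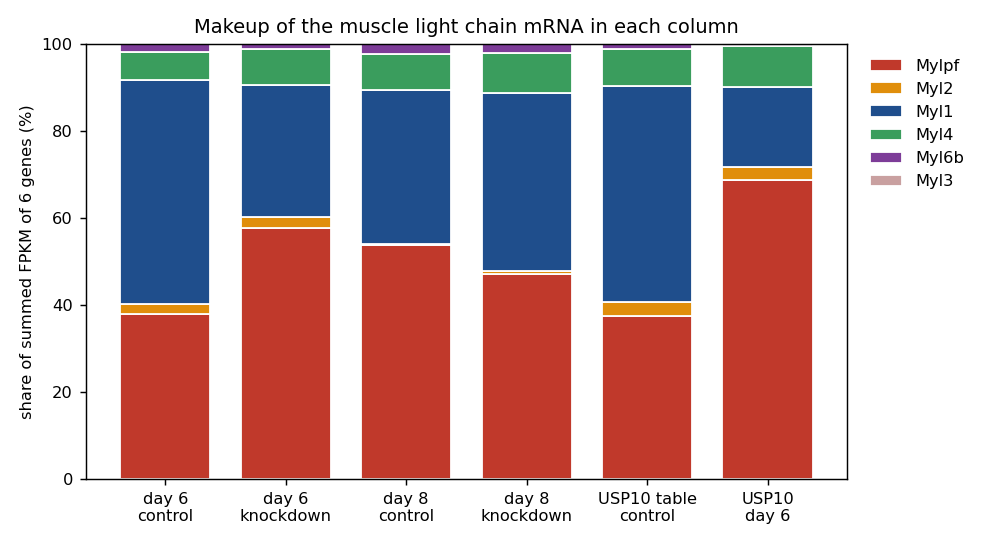
Share of each gene in the summed FPKM of the 6 muscle light chains (vertical axis, %) in the 6 differentiated columns. Mylpf holds 38.0% and 37.6% in the 2 day 6 controls and 57.7% and 68.8% in the day 6 knockdown and USP10 columns, and Myl3 is too low to be seen.

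The regulatory chains also differed from each other. On day 6 there were 17.0 Mylpf for each Myl2 in the control and 22.6 in the knockdown, and 11.7 and 24.1 without and with USP10. On day 8 this ratio was 123 in the control and 59.9 in the knockdown. Mylk2 mRNA stood at 4.57 per 1000 regulatory chain mRNAs in the day 6 control and 2.39 in the knockdown, at 3.46 and 1.92 in the USP10 table, and at 11.9 and 24.5 on day 8. These ratios follow Mylpf, which makes up most of the regulatory sum. Set against Myl2 alone, Mylk2 had a lower log2 ratio in the day 6 knockdown (-2.41 and -1.87), a nearly equal one on day 8 (-1.38 and -1.40) and one nearer to 0 with USP10 (-1.46 and -1.59).

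The other myosin light chains had different ratios on day 6 and with USP10, and lower levels on day 8. Over the list of 6 such genes, of which 5 were kept on day 6, 1 was lower and 1 higher by 2-fold or more, with a median log2 ratio of 0.79. With USP10, 0 of 4 were lower and 1 was higher by 2-fold or more (median -0.05), and on day 8 all 4 kept had negative log2 ratios, 1 of them by 2-fold or more (median -0.51). That gene was Myl9, a smooth muscle and nonmuscle regulatory chain, at 43.6 and 12.9 FPKM on day 8 (log2 ratio -1.75), beyond the members Myl2 and Mylk2, and at 16.6 and 30.5 FPKM on day 6. Myl6, the essential chain of nonmuscle and smooth muscle myosin, was listed at 293 and 1184 FPKM for day 6 control and knockdown cells, a 4.03-fold higher level, and at 399 and 1056 FPKM in the USP10 table, a 2.65-fold higher level. On day 0 it stood at 1537 and 987 FPKM and on day 8 at 1045 and 834 FPKM, without a 2-fold difference. Myl12a, a nonmuscle regulatory chain, stood at 379 and 415 FPKM on day 6, and Myl12b, a near copy of it whose reads may be shared, at 381 and 656 FPKM. The gene lower on day 6 was Myl10, at 1.36 FPKM in control cells and listed at 0 in the knockdown. The ratio of Myl6 to Myl6b, its neighbour on the same strand, was 1.04 in the day 6 control and 28.6 in the knockdown. It was 5.06 without and 71.9 with USP10, and 5.39 and 21.2 on day 8. The 2 day 6 controls thus lay apart in this ratio, at 1.04 and 5.06, and any link to the position of the genes was not tested. Muscle light chains made up 93.5% of the FPKM of all 12 light chain genes in the day 6 control and 62.0% in the knockdown, 86.8% and 61.3% in the USP10 table, and 82.3% and 56.1% on day 8. On day 0 they made up 0.548% and 0.712%.

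Around the kinase, Mylk4, a kinase related to Mylk2, was listed at 12.6 and 0.234 FPKM for day 6 control and knockdown cells, a log2 ratio of -5.69, and at 3.68 and 0.0665 FPKM in the USP10 table. Mylk, the smooth muscle and nonmuscle kinase, stood at 4.30 and 4.74 FPKM on day 6. Over the 6 other kinases, 2 were at least 2-fold lower and 1 higher on day 6, and 2 lower and 0 higher on day 8. Of 6 kept genes of the light chain phosphatase and its inhibitors, 2 were lower on day 6. These were Ppp1r12b, a targeting subunit of striated muscle, at 36.4 and 9.47 FPKM, and Ppp1r14c, a phosphatase inhibitor, at 38.6 and 5.87 FPKM. The catalytic subunit Ppp1cb stood at 88.8 and 80.9 FPKM. Of the 3 calmodulin genes, 0 were 2-fold lower or higher in any of the 4 tables. Calm3 came close on day 6, at 52.3 and 103.7 FPKM (log2 ratio 0.99). The medians of the list were 0.61, -0.82 and -0.16 on day 6, on day 8 and with USP10.

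The heavy chains that carry these light chains were lower by larger ratios on day 6. All 9 sarcomeric heavy chain genes were at least 2-fold lower in the day 6 knockdown, with a median log2 ratio of -4.31, as were 7 of 7 kept with USP10 (-6.74) and 5 of 8 on day 8 (-1.77). Embryonic Myh3 was listed at 616 and 86.2 FPKM in the day 6 control and knockdown, and perinatal Myh8 at 507 and 7.22 FPKM. These genes are near copies of one another, so their single values are uncertain. Thick filament partners, among them the myosin-binding proteins and myomesins, were lower in 8 of 8 genes in each of the 3 differentiated tables, with medians of -3.74, -1.99 and -3.39 on day 6, on day 8 and with USP10. The median of the light chain genes and Mylk2 was thus nearer to 0 than that of either list in both day 6 tables. On day 8 it was lower than the heavy chain median and close to that of the thick filament partners. The day 8 order did not hold for summed levels, at 2509 and 388 FPKM for heavy chains and 8694.5 and 1847 FPKM for the members. Single heavy chains on day 8 ran from Myh4 at -5.15 to Myh2 at 0.40, with the most abundant, Myh3, at -4.74. The 16 housekeeping genes had medians of 0.16, -0.30 and 0.14 on day 6, on day 8 and with USP10. Their single log2 ratios ranged from -1.73 to 3.19, from -1.83 to 0.76 and from -0.82 to 1.69.

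**Figure D4:**
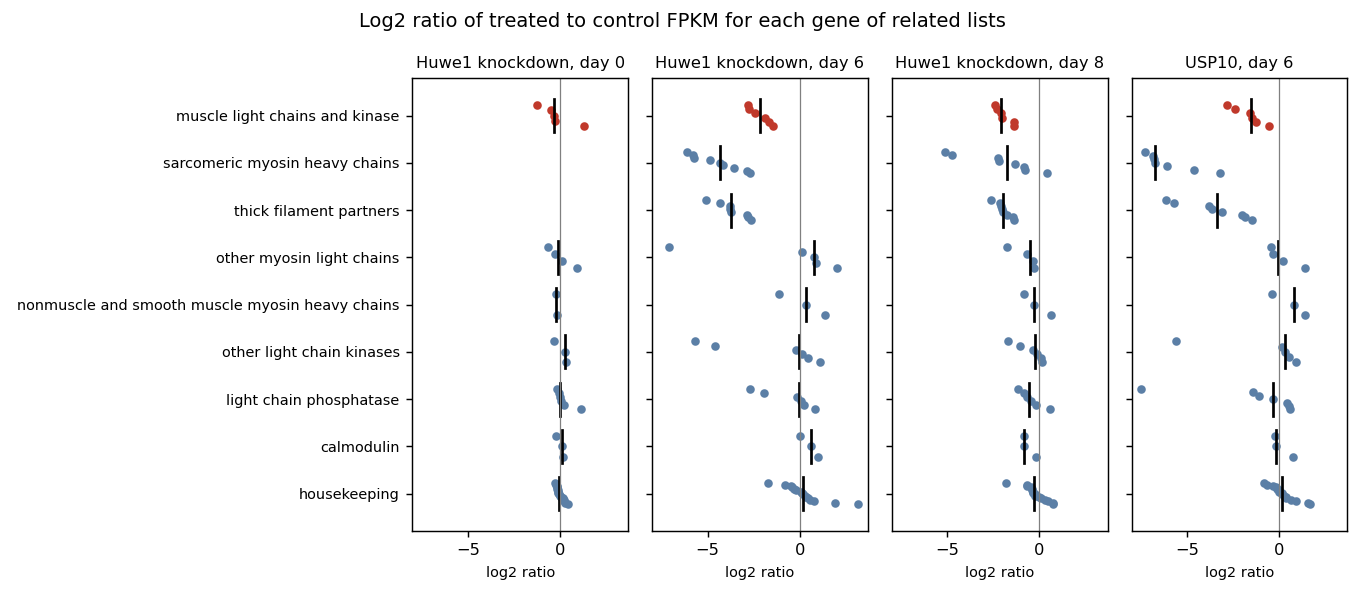
Log2 ratio of treated to control FPKM (horizontal axis) of every gene kept, by list (rows) and table (panels), with black bars at the median of a list. The red points are the light chains and Mylk2. On day 6 their median, -2.14, lies between those of the sarcomeric heavy chains (-4.31) and of the housekeeping genes (0.16).

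Markers of other cell types differed between the tables. Of 9 fibroblast and mesenchymal markers, 8 were kept and 8 were at least 2-fold higher in the day 6 knockdown, with a summed level of 167 FPKM without and 4927 FPKM with it. Decorin (Dcn), a matrix proteoglycan, stood at 7.94 and 2987 FPKM. With USP10, 5 of 8 were higher, with summed levels of 632 and 4395 FPKM. On day 8, 2 of 7 were higher and 1 lower by 2-fold or more, with summed levels of 751 and 1022 FPKM. Of 6 smooth muscle markers, 5 were kept on day 8 and all 5 were lower, 3 of them by 2-fold or more. Their median log2 ratio was -2.04, with summed levels of 1291 and 1056 FPKM. Acta2, the most abundant of these markers, stood at 1147 and 1010 FPKM (log2 ratio -0.18), and Smtn had a log2 ratio of -0.89. Transgelin (Tagln), an actin-binding protein, was at 100.3 and 24.3 FPKM, Cnn1 and Lmod1 were below 3 FPKM, and Myh11, the defining heavy chain, was at 0.0555 and 0.232 FPKM. In the day 6 knockdown 0 of 4 and with USP10 1 of 4 were lower by 2-fold or more. Thy1 was listed at 0 in both columns of the day 6 knockdown table. Of the 8 myogenic markers in the tables, 4 were at least 2-fold lower and 1 higher in the day 6 knockdown (median -1.01) and with USP10 (median -0.87), and 4 were lower and 0 higher on day 8 (median -1.08). They ranged widely, from Actn2, a Z-disc protein, at log2 ratios of -6.01 and -6.02 on day 6 and with USP10, through the myogenic factor Myog at -4.51 and -3.40 and desmin at -0.71 and -0.10, to Myf5, a factor of undifferentiated myoblasts, at 2.39 and 2.07. The part of these markers in the light chain levels was not tested.

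By the root mean square difference of log2(FPKM + 1) over the 8 columns, after each gene was set to its own mean, the genes most like each member were sought among 8371 genes. Those nearest to Myl1 were Mybph (0.37), Tnnt3 (0.43) and Tnnc1 (0.57), a myosin-binding protein and 2 troponin subunits. Those nearest to Mylpf were Tnni2 (0.56), Acta1 (0.56) and Mybph (0.57), and those nearest to Myl4 were Myom2 (0.45), Tnnc1 (0.60) and Lmod2 (0.61). Myl2 was nearest to Cox6a2 (0.53), a muscle subunit of cytochrome c oxidase. Myl6b was nearest to Gm14635 (0.31), Srl (0.41) and Gm15816 (0.41), and Mylk2 to Sntb1 (0.33), Ppfia4 (0.40) and Pnmal2 (0.41). Within the family Myl1 and Mylpf were each other's nearest member, at 0.70.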

How the data were processed

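The members, lists and rules were chosen with earlier results of these data known. The authors mapped reads of oligo(dT)-purified mRNA with Tophat and compared conditions with Cuffdiff. Their processing notes name Bowtie2, Cuffdiff and mm10, and versions are not given in the sources used here. The deposited FPKM of each gene were used as 1 value per condition, in 8 columns of 4 tables. The authors' own log2 fold change, test score, p-value and q-value columns were not used. The hairpins in the labels for days 0 and 6 are not those of the methods, and all 4 hairpins match Huwe1 in full. Log2 ratios were taken with 0.01 FPKM added, over genes reaching 1 FPKM in either column, and counts were made at 2-fold. On this scale a gene near 0 in 1 column gets a large ratio. Myl10, at 1.36 and 0 FPKM in the day 6 control and knockdown, had a log2 ratio of -7.10. A pseudocount of 1 FPKM gave smaller ratios for low genes, as for Myl4 on day 0 (0.79 in place of 1.32). Named were the members, genes of the lists, Huwe1, Usp10 and the 3 nearest genes of each member, except that for Myl2 only the nearest is reported here. Depth was estimated from the steps between the lowest FPKM, for columns of 1 library. File starts were counted from 0, so 1 was added. Promoters came from RefSeq, and Mylk2 had no entry. The steps were tested on simulated data with counting noise. Alternatives were other pseudocounts and minimums, centring, a locus minimum of 500 bases, the other day 6 control and other sums of light chains. Tools were pandas 2.3.3 and numpy 2.4.6 under Python 3.11.15, with matplotlib 3.10.9 for plots.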

Additional observations from a re-analysis of the deposited data

Results flagged for a closer look

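Myl4 was set apart because its difference turned sign between tables. Its log2 ratio was 1.32 in the day 0 knockdown, where it was listed at 0.924 and 2.33 FPKM for control and knockdown cells, and -1.67, -2.11 and -1.28 in the day 6, day 8 and USP10 tables. The criterion, at least 2-fold in opposite directions in 2 tables, was set after the values were seen. The difference between the tables was not tested, and about 18.2 fragments lie behind the day 0 control value. With a pseudocount of 1 FPKM the day 0 ratio was 0.79.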

How the results depend on the processing

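No paired analysis was possible because the deposited columns pool the replicates and carry no replicate values, and for the same reason no replicate could be left out and no difference could be tested. What counts as a move was judged by the distance between the 2 day 6 control columns, which may come from 1 library and is no replicate spread. In the day 6, day 8 and USP10 tables the log2 ratios of the 6 members were negative under every alternative run. On day 0, 0 members were lower and 0 higher with a pseudocount of 1 or with 1 FPKM required in both columns. On day 8 without a minimum, 1 member, Myl3, was higher, against a control at 0. With the other day 6 control, the median of the members was -1.10 in the day 6 knockdown, where 4 of 6 were still 2-fold lower. With USP10 the median was -2.46 and 6 were 2-fold lower. For these counts the share of all genes is not given. Over all 12 light chain genes the difference in the Myl1 share was 0.0220 percentage points on day 0 and -6.15 on day 8, both reversed, and -29.4 on day 6. Without Myl6b it was -5.62 on day 0.

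Counts over all genes, lower then higher, moved as follows. With a pseudocount of 1 they were 88 and 124 on day 0, and 545 were higher on day 8. With a minimum of 5 FPKM they were 90 and 117 on day 0, 771 and 502 on day 8, 658 and 740 with USP10, and 1357 were higher on day 6. With 1 FPKM in both columns they were 106 and 91 on day 0, 783 and 544 on day 8, 669 and 741 with USP10, and 1284 were higher on day 6. With no minimum they were 953 and 1710, 3141 and 3937, 3640 and 2408, and 2880 and 2983 on day 0, day 6, day 8 and with USP10. Centring on housekeeping genes shifted log2 ratios by their medians, 0.16 on day 6, -0.30 on day 8 and 0.14 with USP10. On day 8 this gave 857 lower and 1640 higher genes in place of 1180 and 928, so that 34.3% rather than 56.0% of calls were lower, and 6 of 6 members stayed at least 2-fold lower. The cause of these moves was not tested.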
